A study of Mus musculus with 6 samples.

Results

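The VEGF and angiopoietin genes were taken as a fixed list of 10 of the 31055 genes in the count tables. They are the ligands Vegfa, Vegfc, Pgf, Angpt1 and Angpt2, the VEGF receptors Kdr, Flt1 and Flt4, the co-receptor Nrp1 and the angiopoietin receptor Tek. The genes were chosen by name and followed across epithelium, stroma, macrophages and endothelial subsets of C3(1)-Tag mice, in which the C3(1) promoter drives the SV40 large T antigen on the FVB/NJ background. Single-cell 3′ RNA libraries were made from female mice of 3 states, with 2 libraries of Prepuberty glands at 5 weeks of age, 2 of glands containing ductal carcinoma in situ (DCIS) at 14 weeks and 2 of palpable tumors at more than 18 weeks (Tumor). Every library, Prepuberty included, came from this transgenic model, so no state is a gland without the transgene. Whether the 2 libraries of each state came from separate animals is not given in the labels, which only number them, and the p-values below therefore measure only the spread between these libraries. The study's methods name a tumor dissociation kit for the tumors and a newer library chemistry for Tumor 2, whereas the labels give 1 protocol for all, so a change with state and a change with dissociation cannot be told apart in the comparisons with Tumor.

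VEGF ligands drive endothelial cells to divide, migrate and form new vessels. Vegfa signals mainly through Kdr, while Flt1 binds Vegfa and Pgf tightly, signals weakly and also exists as a soluble trap. Vegfc acts through Flt4, which marks lymphatic and sprouting endothelium, and Nrp1 holds VEGF ligands on the cell surface next to their receptors. Angpt1, made by mesenchymal cells, activates Tek on endothelial cells and stabilises vessels, and Angpt2, made by endothelial cells, competes with it. The libraries count tags from 3′ ends of transcripts, so soluble and membrane Flt1, and the splice forms of Vegfa, are counted together.

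Of 23835 barcodes, 21537 cells passed the filters, with 2548 to 4306 cells per library and library medians of 6541 to 13631.5 unique molecular identifiers (UMIs) per cell. Tumor 2 was the deepest library and DCIS 2 the shallowest. Among these cells 257 barcode sequences occurred in 2 libraries and 2 in 3 libraries. Cells were clustered without the 10 genes, and clusters were named from marker genes. In the endothelial-like class all 7 endothelial markers (Pecam1, Cdh5 and others) were detected in every library, and their summed level was 4362 to 6576 CPM (UMIs of a gene divided by all UMIs of the class in that library, on the usual CPM scale). The libraries held 701 and 668 endothelial-like cells in Prepuberty, 424 and 353 in DCIS and 77 and 33 in Tumor. These cells divided into a capillary-like cluster, marked by Gpihbp1, Rgcc and Cd300lg, and a venous-like cluster, marked by Ackr1, Selp and Vwf. Tumor 1 and Tumor 2 held 68 and 30 capillary-like cells, but only 9 and 3 venous-like cells.

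Across the named cell classes, 8 of the 10 genes had their highest mean level in endothelial-like cells. Vegfa and Angpt1 did not. For Kdr, Flt1, Flt4, Tek and Angpt2 the lowest of the 6 endothelial-like levels was above the highest level in any other class. Kdr averaged 255 ± 219 CPM (SD, n = 6 libraries) in endothelial-like cells, with a range of 97.2 to 556 CPM, and reached at most 26.1 CPM in another named class, from 1 UMI in 23 Schwann-like cells of DCIS 1. Flt1 averaged 492 ± 343 CPM in endothelial-like cells and 53.6 ± 51.0 CPM in pericyte- or smooth-muscle-like cells (n = 5 libraries). The next neighbours of Flt1, from pericyte- or smooth-muscle-like down to T-cell-like cells, overlapped in range.

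Angpt2 averaged 283 ± 84.0 CPM in endothelial-like cells and 30.9 ± 32.7 CPM in pericyte- or smooth-muscle-like cells, the class next to it. Tek averaged 64.5 ± 32.1 CPM in endothelial-like cells and at most 1.07 ± 0.808 CPM, in fibroblast-like cells, in the other named classes. Cells of unnamed clusters averaged 2.20 ± 1.37 CPM of Tek. Tek had no UMI in the T-cell-like, Schwann-like or macrophage-like cells of any library with at least 10 such cells. None of these genes was used to name the class. Flt4 averaged 41.98 ± 37.1 CPM in endothelial-like cells and below 1 CPM in each other named class.

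Nrp1 and Vegfc were spread over more classes. Nrp1 averaged 163 ± 141 CPM in endothelial-like, 37.9 ± 43.9 CPM in pericyte- or smooth-muscle-like, 32.5 ± 50.1 CPM in fibroblast-like and 21.8 ± 17.8 CPM in macrophage-like cells, and each of these ranges overlapped the next. Vegfc averaged 15.3 ± 16.8 CPM in endothelial-like and 8.34 ± 3.51 CPM in fibroblast-like cells, which also overlapped. Pgf averaged 327 ± 229 CPM in endothelial-like cells but was at 0 in Tumor 2, and so overlapped Schwann-like (106 ± 69.0 CPM, n = 4 libraries) and myoepithelial-like cells (58.5 ± 55.0 CPM).

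For the remaining ligands the order of the classes was not clear of the spread. Vegfa averaged 47.3 ± 43.0 CPM in macrophage-like, 44.3 ± 31.5 CPM in myoepithelial-like, 34.8 ± 21.2 CPM in fibroblast-like and 26.9 ± 28.4 CPM in epithelial-like cells, and 14.9 ± 7.40 CPM in endothelial-like cells, with overlapping ranges throughout. Angpt1 averaged 15.4 ± 9.25 CPM in pericyte- or smooth-muscle-like and 13.9 ± 23.3 CPM in fibroblast-like cells, and below 1 CPM in endothelial-like and macrophage-like cells.

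**Figure D1:**
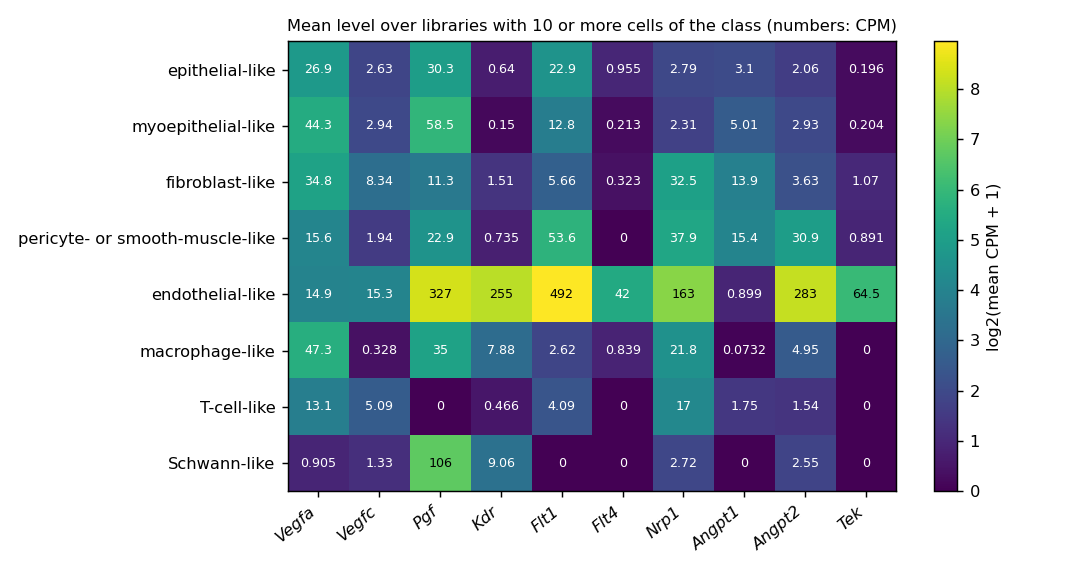
Mean level of each of the 10 genes (columns) in each named cell class (rows), over the libraries with at least 10 cells of the class. Colour is log2(mean CPM + 1) and the printed number is the mean CPM. The endothelial-like row holds the highest value of every column except Vegfa, highest at 47.3 CPM in macrophage-like cells, and Angpt1, highest at 15.4 CPM in pericyte- or smooth-muscle-like cells.

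The 3 states were compared within each class on UMIs summed per library, with edgeR's quasi-likelihood test adjusted over all genes of the class. The 3 comparisons of a class share libraries and are not independent, and an exact permutation test of 2 libraries against 2 could not go below a two-sided p of 0.333. In endothelial-like cells 5 of the 9 genes tested were higher in Tumor than in Prepuberty, against 11.5% of all genes called, and 4 of 9 were higher in Tumor than in DCIS, against 12.9%. Their median log2 difference was 2.01 for Tumor against Prepuberty, where the median over all genes was -0.02. None of the 9 passed between DCIS and Prepuberty by edgeR, as for all genes (0.0%). At an unadjusted p under 0.05, 1 gene (Flt1) was past the threshold, against 10.8% of all genes, and 0 passed in DESeq2, against 0.555%.

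In fibroblast-like cells 3 of 9 genes tested passed between Tumor and DCIS, against 11.3% of all genes, and 2 of 9 between Tumor and Prepuberty, against 7.53%. Between DCIS and Prepuberty 0 of 9 passed by edgeR (0.0% of all genes), 2 (Kdr and Vegfa) had an unadjusted p under 0.05, against 10.5%, and 0 passed in DESeq2, against 0.85%. In macrophage-like cells only 4 of the 10 genes had enough UMIs to be tested, and 1 of them, Vegfa, passed in each comparison. The background there was 0.128% for DCIS against Prepuberty, 6.42% for Tumor against DCIS and 6.01% for Tumor against Prepuberty.

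Epithelial-like cells gave 1 passing gene of 8, Vegfa, between Tumor and Prepuberty, against 6.75% of all genes. Between Tumor and DCIS 0 of 8 passed in edgeR, against 1.88%, while 3 had an unadjusted p under 0.05, against 24.8%, and 2 passed in DESeq2, against 12.3%. Between DCIS and Prepuberty 0 of 8 passed in edgeR (0.0% of all genes), 0 had an unadjusted p under 0.05, against 13.3%, and 0 passed in DESeq2, against 2.54%. In pericyte- or smooth-muscle-like cells 0 of 5 passed between DCIS and Prepuberty in edgeR, at an unadjusted p under 0.05 or in DESeq2, against 0.415%, 14.3% and 0.488% of all genes. The Tumor state had only 1 library with at least 10 such cells and was not tested.

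Vegfa, the main ligand of the family, changed with state in macrophage-like and epithelial-like cells. In macrophage-like cells it was at 6.58 and 6.36 CPM in the Prepuberty libraries, 92.4 and 107 CPM in DCIS, and 39.1 and 32.1 CPM in Tumor, from 3, 3, 143, 95, 89 and 49 UMIs. Both DCIS libraries stood above both Tumor libraries, and these above both Prepuberty libraries, without overlap. Vegfa in these cells rose from Prepuberty to DCIS by 4.08 ± 0.51 on the log2 scale (± standard error, edgeR adjusted p = 0.012) and fell from DCIS to Tumor by 2.03 ± 0.37 (edgeR adjusted p = 0.013). Tumor was above Prepuberty by 2.04 ± 0.53 (edgeR adjusted p = 0.046), a difference that no longer passed under 12 of 19 alternatives.

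The rise to DCIS was no longer called without Prepuberty 2 (log2 3.90, edgeR adjusted p = 0.21), DCIS 1 (4.14, 0.062) or DCIS 2 (4.02, 0.11), and the fall to Tumor was no longer called without DCIS 1 (-2.11, 0.11) or DCIS 2 (-1.99, 0.13). Vegfa UMIs were found in 3.03% and 2.41% of macrophage-like cells in Prepuberty, 35.9% and 36.1% in DCIS and 14.9% and 11.8% in Tumor. With every cell thinned to 2000 UMIs these shares were 0% and 2.90%, 17.9% and 19.5%, and 6.61% and 5.26%, the same order of the states at equal depth. T-cell-like cells, a class in which little Vegfa is expected, had Vegfa UMIs in 1.04% to 6.73% of cells at lower depth, with library medians of 1221 to 2534.5 UMIs per cell against 3873 to 6508 in macrophage-like cells. Neutrophil markers in the macrophage-like class summed to 169 and 354 CPM in Prepuberty, 321 and 62.1 CPM in DCIS and 930 and 4947 CPM in Tumor. Leaving out cells with a UMI of Csf3r, Cxcr2, Retnlg or Mmp8, the differences were 3.82 for DCIS against Prepuberty and -2.07 for Tumor against DCIS, and both passed (edgeR adjusted p = 0.033 and 0.021). Without integration of the libraries, 333 and 103 of the macrophage-like cells of Tumor 1 and Tumor 2 lay in a cluster led by C1qa, C1qc and C1qb that held 0, 3, 4 and 4 gland cells, and 63 and 45 lay in the cluster that held the other gland cells.

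In epithelial-like cells the order was another. Vegfa was at 4.56 and 14.7 CPM in Prepuberty, 7.34 and 10.1 CPM in DCIS, and 72.5 and 52.3 CPM in Tumor. Both Tumor libraries were above the other 4, which overlapped. Vegfa rose from Prepuberty to Tumor by 2.61 ± 0.56 on the log2 scale (edgeR adjusted p = 0.039), and Tumor against DCIS differed by 2.48 ± 0.53 without passing (edgeR adjusted p = 0.057). The Prepuberty libraries weighed on this value, since without Prepuberty 1 the difference was 1.92 (edgeR adjusted p = 0.18) and without Prepuberty 2, which held only 113 epithelial-like cells, it was 3.40 (0.10). Without DCIS 1 or DCIS 2 it was 2.57 (0.070 and 0.069). In all it was called under 8 of 17 alternatives, and it was not called with only the libraries compared (2.57, 0.066), without cells carrying an endothelial-marker UMI (2.61, 0.058), with a mitochondrial limit of 5% (1.98, 0.13) or without integration (2.18, 0.28).

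Within the Tumor epithelium Vegfa varied between clusters. The cluster led by Pthlh, Nppb and Aqp3 had 109 and 107 CPM in Tumor 1 and Tumor 2, and the cluster led by Cgn, Dtl and Hspa1a had 126 and 128 CPM. This second cluster held only 28 cells of Tumor 2. The cluster led by Ankrd1, Ccl20 and Cldn1 had 84.5 and 60.9 CPM, and the proliferating cluster led by Cenpf, Ube2c and Ccnb1 had 43.9 and 42.04 CPM. The cluster led by the milk and secretory genes Ltf, Csn3 and Trf was lowest of those with at least 50 cells in both libraries, at 36.3 and 14.7 CPM. In this last cluster Prepuberty had 4.89 and 14.6 CPM and DCIS 10.7 and 11.9 CPM, so Tumor 1, but not Tumor 2, was clear of the glands there. The mix of clusters also differed between states, and its part in the class-wide difference was not tested. Without integration, 1787 and 1529 cells of Tumor 1 formed a pair of epithelial-like clusters with at most 4 cells of any gland library. Tumor 2 then had 93 and 37 cells in the clusters of most gland epithelial-like cells, and 886, 779 and 186 of its cells lay in unnamed clusters with at most 17 cells of any gland library.

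The T antigen, the transgene's product, was used to divide these cells. On the mean CPM of the 2 libraries of a state, cells with a T-antigen UMI had 7.12 times as much Vegfa in Tumor as in DCIS, and cells without had 8.83 times as much, against 7.15 times for all epithelial-like cells. In Tumor 1 the level was 68.8 CPM in 1790 cells with and 89.7 CPM in 696 cells without a T-antigen UMI, and in Tumor 2 it was 45.8 CPM in 733 cells with and 66.9 CPM in 550 cells without. Cells without a T-antigen UMI had lower depth in both libraries, with median UMIs of 8258.5 against 15456.5 in Tumor 1 and 11635 against 21192 in Tumor 2, and such a cell is not shown to lack the transgene's RNA.

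The change of Vegfa between DCIS and Tumor was set side by side in both classes. It differed by 4.55 ± 0.45 on the log2 scale between epithelial-like and macrophage-like cells (edgeR interaction of state and class with the library as a block, adjusted p = 3.3e-05), against 4.87% of all genes called. Epithelial-like cells were higher in Tumor and macrophage-like cells lower. The same test called Pgf, whose change differed by 4.19 ± 0.94 (edgeR adjusted p = 0.016), but the epithelial side of that difference rests on Tumor 1.

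**Figure D2:**
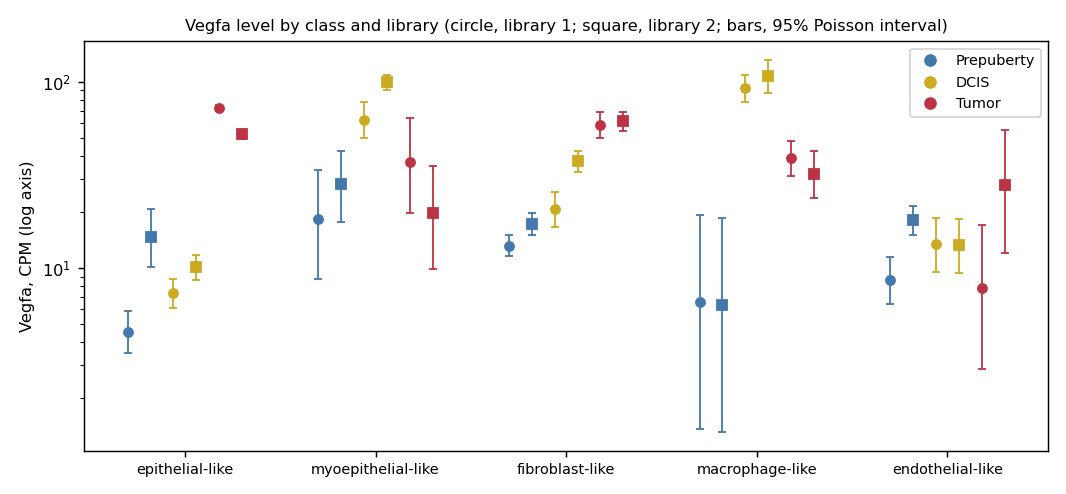
Vegfa level in CPM (log axis) in 5 cell classes, with a circle for library 1 and a square for library 2 of each state. Bars are 95% exact Poisson intervals of the UMI counts. Macrophage-like and myoepithelial-like cells are highest in DCIS, epithelial-like and fibroblast-like cells in Tumor, and endothelial-like cells overlap between states.

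In fibroblast-like cells Vegfa was at 13.2 and 17.3 CPM in Prepuberty, 20.8 and 37.4 CPM in DCIS, and 58.8 and 61.4 CPM in Tumor. The 3 states did not overlap, but the difference between Tumor and Prepuberty, 1.54 ± 0.39 on the log2 scale, did not pass (edgeR adjusted p = 0.055). Myoepithelial-like cells were not tested. Their 33 and 53 Tumor cells were placed in the class with integration of the libraries, and without it the myoepithelial-like cluster held 85, 122, 188 and 640 gland cells and 0 Tumor cells, so values of this class in Tumor rest on the integration. Vegfa in these cells was at 18.3 and 28.2 CPM in Prepuberty, 62.7 and 99.5 CPM in DCIS, and 37.3 and 19.8 CPM in Tumor. Both DCIS libraries were highest there, as in macrophage-like cells. In endothelial-like cells the 6 levels lay between 7.84 and 28.0 CPM, and the widest difference between states was 0.35 ± 0.43 (edgeR adjusted p = 0.78).

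Vegfc, the ligand of Flt4, was low in every class. In endothelial-like cells it was at 6.51 and 6.55 CPM in Prepuberty, 7.09 and 5.78 CPM in DCIS, and 48.3 and 17.5 CPM in Tumor. Both Tumor libraries were highest, Tumor 2 from only 5 UMIs. Vegfc rose from Prepuberty to Tumor by 2.46 ± 0.50 on the log2 scale (edgeR adjusted p = 0.017) and from DCIS to Tumor by 2.16 ± 0.53 (0.033). This result rests largely on Tumor 1, since without it the differences were 1.11 (edgeR adjusted p = 0.33) and 0.82 (0.45). The calls were also lost without Prepuberty 1 (2.53, 0.0504) or Prepuberty 2 (2.32, 0.077) in the first comparison, and without DCIS 1 (2.38, 0.097) or DCIS 2 (1.91, 0.14) in the second. In fibroblast-like cells Vegfc ranged from 5.77 to 15.2 CPM and passed no test.

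Pgf, a ligand of Flt1, was lower in Tumor endothelium. Endothelial-like cells had 433 and 629 CPM in Prepuberty, 322 and 446 CPM in DCIS, 131 CPM in Tumor 1 and no UMI in Tumor 2. The Tumor libraries were below the other 4, and the 33 cells of Tumor 2 held no Pgf UMI, which allows up to 10.5 CPM. In the class as a whole neither difference passed, -2.79 ± 0.91 against Prepuberty (edgeR adjusted p = 0.085) and -2.64 ± 0.91 against DCIS (0.090).

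In capillary-like cells alone Pgf was at 527 and 762 CPM in Prepuberty, 683 and 655 CPM in DCIS, 138 CPM in Tumor 1 and 0 in Tumor 2, and it fell by 2.97 ± 0.88 on the log2 scale against Prepuberty (edgeR adjusted p = 0.049) and by 3.28 ± 0.89 against DCIS (0.036). DESeq2 did not call either (adjusted p = 0.34 and 0.25), and the first call held under 6 of 15 alternatives. Without Prepuberty 1 or Prepuberty 2 the first difference was -3.17 (edgeR adjusted p = 0.084) or -2.83 (0.13), and without DCIS 1 or DCIS 2 it was -3.01 (0.092) or -3.02 (0.085). Without DCIS 1 or DCIS 2 the second difference was -3.25 (0.13) or -3.42 (0.12). Without Tumor 2 the differences were smaller, -2.13 and -2.45, and still called. Without Tumor 1 no Pgf UMI is left in the Tumor state and no fold is given. Venous-like cells had less Pgf than capillary-like cells in each of the 4 gland libraries, at 299, 237, 96.7 and 207 CPM.

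Outside the endothelium Pgf was uneven between tumors. Epithelial-like cells had 3.88 and 29.0 CPM in Prepuberty, 9.27 and 9.98 CPM in DCIS, 119 CPM in Tumor 1 and 10.8 CPM in Tumor 2. Only Tumor 1 stood out, and no comparison passed. Myoepithelial-like cells, as placed with integration, had 163 CPM in Tumor 1 and 10.8 CPM in Tumor 2, and fibroblast-like cells 40.7 and 11.9 CPM, against 1.89 to 5.72 CPM in the 4 gland libraries. The fibroblast difference between Tumor and Prepuberty was 2.73 ± 0.78 (edgeR adjusted p = 0.075). The endothelial-like and fibroblast-like changes from DCIS to Tumor, in opposite directions, differed by -5.17 ± 0.75 on the log2 scale (edgeR interaction, adjusted p = 0.012), against 1.92% of all genes called.

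Angpt1, the activating ligand of Tek, had its highest mean levels in the stroma. Cells of unnamed clusters (mean 4.59 CPM, 245 UMIs) and epithelial-like cells (mean 3.10 CPM, 448 UMIs) held Angpt1 too. In fibroblast-like cells it was at 0.47 and 0.68 CPM in Prepuberty, 1.69 and 0.77 CPM in DCIS, and 21.5 and 58.5 CPM in Tumor, from 8, 8, 7, 5, 56 and 265 UMIs. The gland libraries held few UMIs and both Tumor libraries were far above them. Angpt1 rose by 5.58 ± 0.63 on the log2 scale from Prepuberty to Tumor (edgeR adjusted p = 0.0070) and by 4.33 ± 0.62 from DCIS to Tumor (0.012). Without Tumor 2 the differences were 4.91, still called (edgeR adjusted p = 0.022), and 3.64 (0.051). The first call was lost without Prepuberty 1 (5.32, 0.055) or Prepuberty 2 (5.74, 0.054), and the second without DCIS 1 (4.89, 0.060) or DCIS 2 (3.77, 0.11).

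RNA of tumor cells was present in the Tumor fibroblast-like class. T-antigen UMIs were found in 63 of its 210 cells in Tumor 1 and 120 of 259 in Tumor 2, and epithelial markers summed to 631 and 149 CPM there, against 14.2 to 78.3 CPM in the glands. Myoepithelial markers summed to 2256 and 466 CPM, against 29.2 to 92.3 CPM in the glands. Fibroblast markers of this class summed to 22292 and 10086 CPM in Tumor, against 7389 to 13912 CPM in the glands. Angpt1 was at 28.6 and 58.2 CPM in the cells without a T-antigen UMI and at 9.39 and 58.7 CPM in those with one. Without integration of the libraries, most Tumor fibroblast-like cells lay outside the 2 clusters that held most of the gland cells of this class. A cluster led by H19, Brinp3 and Mme held 188 cells of Tumor 2 and 1 gland cell, and a cluster led by Sfrp2, Col1a1 and Cilp held 170 and 28 Tumor cells, 118 and 44 DCIS cells and 2 and 1 Prepuberty cells. Among cells without a T-antigen UMI the differences were 5.75 against Prepuberty (edgeR adjusted p = 0.010) and 4.50 against DCIS (0.013), as large as in the whole class. Those cells had lower depth, with median UMIs of 10784 against 13558 in Tumor 1 and 12535 against 18221 in Tumor 2. Such a cell is not shown to lack the transgene's RNA. Epithelial-like cells themselves had 2.33 and 12.2 CPM of Angpt1 in Tumor.

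Angpt1 was also present in mural cells. Pericyte- or smooth-muscle-like cells had 9.18 and 9.16 CPM in Prepuberty, 29.4 and 20.5 CPM in DCIS, and 8.84 CPM in Tumor 1, from 1 to 7 UMIs. Both DCIS libraries were highest, but the difference of 1.61 ± 0.73 from Prepuberty did not pass (edgeR adjusted p = 0.35). The myoepithelial-like cells of Tumor 2 held 16 UMIs, or 28.8 CPM, and those of DCIS none, so that pooled Tumor myoepithelial-like cells were at least 33.9-fold higher than DCIS, with the DCIS level set to 3 UMIs over the group. Without integration the Tumor cells were not in the cluster of the DCIS cells. No myoepithelial-like cell of Tumor 1 held an Angpt1 UMI.

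**Figure D3:**
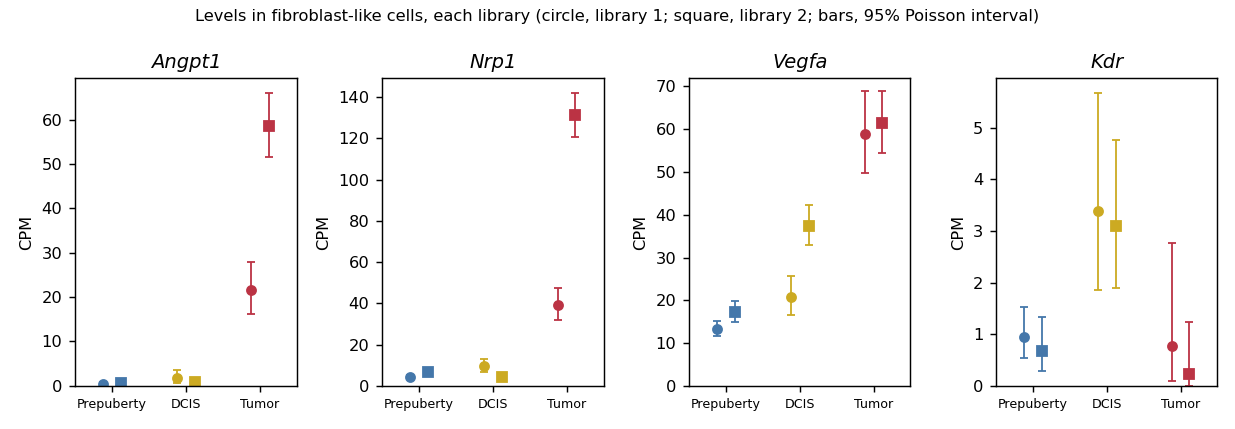
Levels in CPM of Angpt1, Nrp1, Vegfa and Kdr in fibroblast-like cells of each library, with a circle for library 1 and a square for library 2 of each state. Bars are 95% exact Poisson intervals. Angpt1 and Nrp1 are high in both Tumor libraries and differ between them, Vegfa is highest in both, and Kdr stays below 3.4 CPM in every library.

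Angpt2, the endothelial ligand that competes with Angpt1, was at 351 and 246 CPM in endothelial-like cells of Prepuberty, 388 and 309 CPM in DCIS, and 251 and 154 CPM in Tumor. Both Tumor libraries were below both DCIS libraries, and Prepuberty overlapped each of these states. The largest difference, Tumor against DCIS at -1.12 ± 0.41 on the log2 scale, did not pass (edgeR adjusted p = 0.10). Venous-like cells had more Angpt2 than capillary-like cells in each gland library, at 481, 359, 445 and 404 CPM against 259, 208, 296 and 225 CPM. Capillary-like cells had 266 and 151 CPM in Tumor, and the difference from DCIS was -0.53 ± 0.38 (edgeR adjusted p = 0.36). Venous-like cells were 270 of 424 and 176 of 353 endothelial-like cells in DCIS, and 9 of 77 and 3 of 33 in Tumor.

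Among the receptors, Kdr, Flt1, Flt4 and Nrp1 all rose in Tumor endothelium, by 2.01 to 2.17 on the log2 scale against Prepuberty. Kdr, the main VEGF signalling receptor, was at 103 and 126 CPM in Prepuberty, 97.2 and 131 CPM in DCIS, and 520.0 and 556 CPM in Tumor. The 4 gland libraries overlapped and both Tumor libraries were far above them. Kdr rose by 2.16 ± 0.27 on the log2 scale against Prepuberty (edgeR adjusted p = 0.0028) and by 1.86 ± 0.27 against DCIS (0.0056), and did not pass between DCIS and Prepuberty, where the difference was 0.30 ± 0.26 (0.69). The first call held under all 17 alternatives run, and the second under 16, the exception being without DCIS 1 (1.72, edgeR adjusted p = 0.063).

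Kdr UMIs were found in 37.1% and 49.3% of endothelial-like cells in Prepuberty, 35.4% and 40.8% in DCIS, and 80.5% and 72.7% in Tumor. With every cell thinned to 2000 UMIs the shares were 15.5% and 19.2%, 15.8% and 19.4%, and 46.7% and 61.9%. Thinning left out 134, 96, 37, 39, 2 and 12 shallower cells in the same order. T-cell-like cells had Kdr in at most 0.568% of cells before thinning and in none after it.

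Flt1, the high-affinity receptor that also binds Pgf, was at 237 and 170.4 CPM in Prepuberty, 388 and 307 CPM in DCIS, and 915 and 936 CPM in Tumor. The 3 states did not overlap. Flt1 rose by 2.09 ± 0.35 on the log2 scale from Prepuberty to Tumor (edgeR adjusted p = 0.0084). The intermediate steps, 1.08 ± 0.34 from Prepuberty to DCIS (0.35) and 1.02 ± 0.34 from DCIS to Tumor (0.084), did not pass. Without Prepuberty 2 the rise was 1.76 and was not called (edgeR adjusted p = 0.065).

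Flt4, the Vegfc receptor, was at 20.9 and 22.7 CPM in Prepuberty, 16.7 and 18.1 CPM in DCIS, and 107 and 66.4 CPM in Tumor. Both Tumor libraries were above the others, Tumor 2 from 19 UMIs. Flt4 rose by 2.01 ± 0.32 on the log2 scale against Prepuberty (edgeR adjusted p = 0.0071) and by 2.03 ± 0.34 against DCIS (0.0084). Without Tumor 1 the differences were 1.30 (0.055) and 1.32 (0.0503), and without DCIS 2 the second was 1.97 (0.0503), and none of these was called. The summed level of 6 lymphatic markers (Prox1, Lyve1 and others) in this class was 315 and 63.1 CPM in Prepuberty, 41.1 and 18.8 CPM in DCIS and 3.92 and 3.49 CPM in Tumor, and 1 of the 6 was detected in each Tumor library. The part of lymphatic cells in the level of Flt4 was not tested.

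Nrp1, the co-receptor, was at 68.1 and 73.2 CPM in Prepuberty, 79.8 and 78.4 CPM in DCIS, and 287 and 391 CPM in Tumor. The gland libraries lay close together and both Tumor libraries were above them. Nrp1 rose by 2.17 ± 0.25 on the log2 scale against Prepuberty (edgeR adjusted p = 0.0022) and by 1.69 ± 0.25 against DCIS (0.0062). The first call held under all 17 alternatives run, and the second was lost only without DCIS 2 (1.57, edgeR adjusted p = 0.064).

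Tek, the angiopoietin receptor, was at 56.0 and 63.9 CPM in Prepuberty, 30.5 and 53.5 CPM in DCIS, and 57.5 and 126 CPM in Tumor. Both DCIS libraries were below the other 4, and Prepuberty and Tumor overlapped. Tek passed no test, and its difference between Tumor and Prepuberty was 0.44 ± 0.34 (edgeR adjusted p = 0.44). Tumor against DCIS differed by 0.65 ± 0.35 (0.24).

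**Figure D4:**
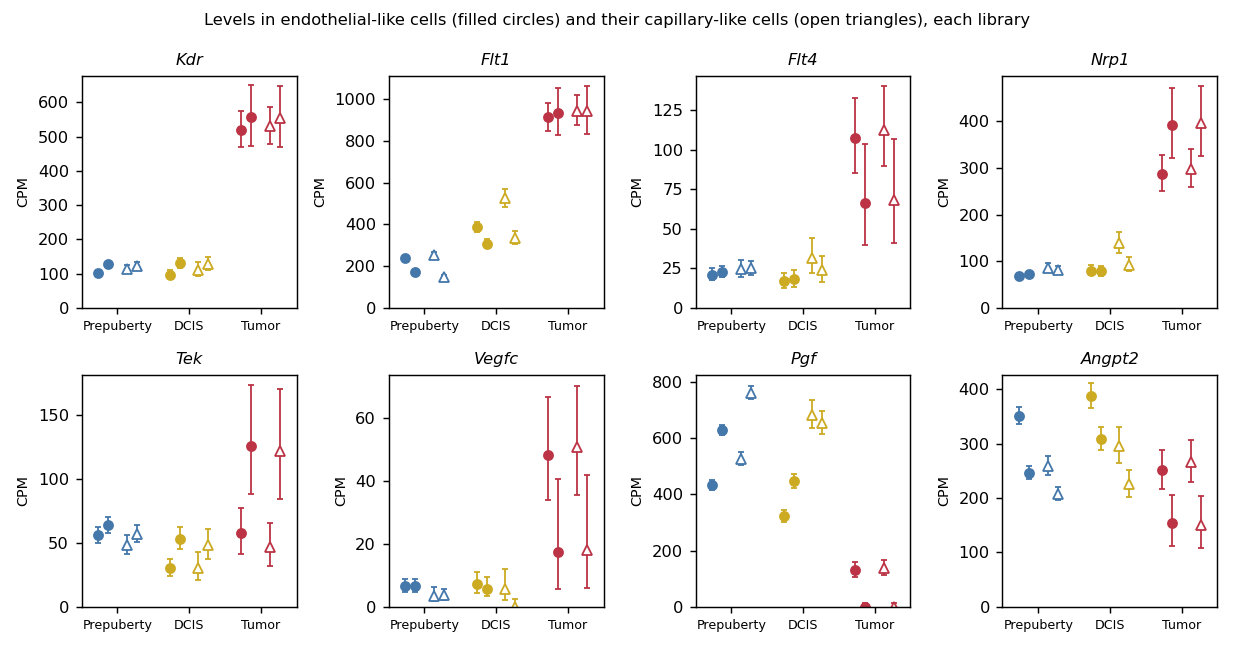
Levels in CPM of 8 of the 10 genes in endothelial-like cells (filled circles) and in their capillary-like cells alone (open triangles), for each library. Bars are 95% exact Poisson intervals. Kdr, Flt1, Flt4 and Nrp1 are above every gland library in both tumors, Pgf is below, and Tek and Angpt2 overlap between Tumor and Prepuberty. Filled circles of Angpt2 are lower in Tumor than in DCIS, and those of Tek are lowest in DCIS.

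The same receptors were higher in Tumor when capillary-like cells were taken alone. In capillary-like cells Kdr was at 114 and 123 CPM in Prepuberty, 111 and 129 CPM in DCIS, and 530 and 554 CPM in Tumor. Against Prepuberty, 6 of 9 genes tested passed, 5 higher and Pgf lower, against 16.0% of all genes, and against DCIS 5 of 9 passed, 4 higher and Pgf lower, against 17.0%. Which Tumor cells counted as capillary-like depended on the integration of the libraries. Clustered without it, 63 and 15 endothelial-like cells of Tumor 1 and Tumor 2 formed a cluster led by Igfbp3, Kcne3 and Esm1 that held 0 gland cells and stayed unnamed as a subset, and the capillary-like cluster kept 5 and 12 Tumor cells, too few in Tumor 1 for this comparison. For Tumor against Prepuberty the differences were 2.17 ± 0.26 for Kdr (edgeR adjusted p = 0.0013), 2.19 ± 0.40 for Flt1 (0.0071), 1.92 ± 0.35 for Flt4 (0.0072), 2.00 ± 0.31 for Nrp1 (0.0035) and 3.38 ± 0.76 for Vegfc (0.017).

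For Tumor against DCIS in capillary-like cells, Kdr differed by 1.91 ± 0.26 (edgeR adjusted p = 0.0027), Nrp1 by 1.29 ± 0.31 (0.023), Flt4 by 1.54 ± 0.37 (0.024) and Vegfc by 3.71 ± 0.95 (0.029). These calls were less steady than those of Kdr against Prepuberty. Without DCIS 1 Kdr was at 1.81 (0.052). Nrp1 was not called without DCIS 1 (1.61, 0.066), DCIS 2 (0.93, 0.21), Tumor 1 (1.21, 0.064) or Tumor 2 (1.19, 0.056). Flt4 was not called without DCIS 1 (1.75, 0.092), DCIS 2 (1.24, 0.18) or Tumor 1 (0.76, 0.24), nor with library sums thinned to equal depth (1.29, 0.085), and Vegfc not without DCIS 2 (2.44, 0.13) or Tumor 1 (2.29, 0.33), while without DCIS 1, which leaves 0 Vegfc UMIs in DCIS, no fold is given.

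Against Prepuberty in capillary-like cells, Flt1 was not called without Prepuberty 2 (1.75, edgeR adjusted p = 0.063), Flt4 not without Prepuberty 2 (1.80, 0.069) or Tumor 1 (1.16, 0.11), and Vegfc not without Prepuberty 1 (3.39, 0.079), Prepuberty 2 (3.24, 0.11) or Tumor 1 (1.99, 0.37). Kdr and Nrp1 were called in this comparison under all 15 alternatives run. Between DCIS and Prepuberty 0 of 9 genes passed in capillary-like cells by edgeR (0.0% of all genes), 2 (Flt1 and Nrp1) had an unadjusted p under 0.05, against 10.6%, and 0 passed in DESeq2, against 0.358%. In venous-like cells, tested only between DCIS and Prepuberty, 0 of 9 passed, against 0.125%, 1 (Flt1) had an unadjusted p under 0.05, against 13.5%, and 0 passed in DESeq2, against 0.798%.

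A finer clustering split the endothelium further. At a resolution of 1.2 a cluster led by Igfbp3, Esm1 and Abcc9 held 61 cells of Tumor 1 and 16 of Tumor 2, with 95 and 126 cells in Prepuberty and 51 and 45 in DCIS. It was left unnamed, since fewer than 3 subset markers were raised in it. Within this 1 cluster Kdr was at 171 and 151 CPM in Prepuberty, 185 and 250.2 CPM in DCIS, and 540 and 682 CPM in Tumor, with Tumor above both gland states. Flt1 was at 296 and 181 CPM, 477 and 458 CPM, and 956 and 1216 CPM in the same order. Pgf was at 324 and 442 CPM, 306 and 354 CPM, and 146 and 0 CPM, again without overlap between Tumor and the glands. Another cluster, led by Gdf15, Irx3 and Cyp1a1, held 280, 327, 116 and 141 gland cells and 7 and 13 Tumor cells. Pgf was higher there in the glands, at 628 to 937 CPM. Set against all other cells, the cluster led by Igfbp3, Esm1 and Abcc9 had Kdr itself among its leading genes. The part of this mix of clusters in the fall of Pgf and in the rise of the receptors in capillary-like cells was not tested. The arterial-like cluster, in which lymphatic markers were raised as well, held 57, 39, 36 and 31 gland cells and only 1 cell of Tumor 1. It had little Kdr, at 45.9 and 47.8 CPM in Prepuberty and 0 and 11.8 CPM in DCIS, and more Vegfc than the whole class, at 22.0 to 64.7 CPM.

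The upstream sequences of the 4 receptors that rose together, and of Vegfa, are shown because these genes moved with state. Of the 10 genes, 8 had promoter windows in RefSeq (GRCm38.p6), 10 windows in all, and Angpt1 and Angpt2 had none. Each line gives the 250 bases before a transcription start, 5′ to 3′ on the gene's strand. Capitals mark GGAA or its reverse complement TTCC, the core that ETS factors bind, and ACGTG or its reverse complement CACGT, the core that hypoxia-inducible factors bind. Matches were counted on both strands, and an overlap between the 2 motifs would be counted for both.
Kdr, chr5:75978456-75978705, minus strand: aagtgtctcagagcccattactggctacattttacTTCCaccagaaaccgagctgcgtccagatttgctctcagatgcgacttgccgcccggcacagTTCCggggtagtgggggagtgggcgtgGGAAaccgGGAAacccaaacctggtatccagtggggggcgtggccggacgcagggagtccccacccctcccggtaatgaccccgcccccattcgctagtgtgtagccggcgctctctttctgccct
Flt1, chr5:147726012-147726261, minus strand: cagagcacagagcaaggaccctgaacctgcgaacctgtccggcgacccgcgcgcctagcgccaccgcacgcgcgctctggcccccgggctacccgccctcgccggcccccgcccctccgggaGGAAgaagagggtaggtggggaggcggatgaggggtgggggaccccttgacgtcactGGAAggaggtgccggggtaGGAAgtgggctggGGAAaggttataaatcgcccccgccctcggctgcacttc
Flt4, chr11:49609429-49609678, plus strand: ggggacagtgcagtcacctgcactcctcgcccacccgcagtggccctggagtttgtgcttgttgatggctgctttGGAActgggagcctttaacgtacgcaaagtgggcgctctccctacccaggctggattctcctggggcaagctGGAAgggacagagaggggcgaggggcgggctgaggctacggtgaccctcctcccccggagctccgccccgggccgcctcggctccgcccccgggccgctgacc
Nrp1, chr8:128358823-128359072, plus strand: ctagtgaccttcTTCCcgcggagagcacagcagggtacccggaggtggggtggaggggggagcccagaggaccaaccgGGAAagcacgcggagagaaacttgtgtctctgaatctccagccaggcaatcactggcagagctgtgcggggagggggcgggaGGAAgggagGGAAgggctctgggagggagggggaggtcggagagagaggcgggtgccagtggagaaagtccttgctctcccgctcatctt
Vegfa, first start, chr17:46032378-46032627, minus strand: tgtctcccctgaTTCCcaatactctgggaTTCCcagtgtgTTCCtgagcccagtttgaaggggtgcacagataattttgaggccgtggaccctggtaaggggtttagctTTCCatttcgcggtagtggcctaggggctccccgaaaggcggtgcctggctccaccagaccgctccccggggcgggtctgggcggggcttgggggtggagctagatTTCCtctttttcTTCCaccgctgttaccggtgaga
Vegfa, second start, chr17:46025164-46025413, minus strand: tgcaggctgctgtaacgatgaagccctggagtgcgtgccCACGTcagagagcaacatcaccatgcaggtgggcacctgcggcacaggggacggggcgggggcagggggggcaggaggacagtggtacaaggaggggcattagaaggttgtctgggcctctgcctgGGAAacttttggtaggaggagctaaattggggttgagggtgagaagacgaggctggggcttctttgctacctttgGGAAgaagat
The ETS core matched 4 times in the Kdr, Flt1 and Nrp1 windows and 2 times in the Flt4 window, and 6 and 2 times in the first and second Vegfa windows, where the median over 32851 promoter windows was 3. It was present in 8 of the 10 windows and in 93.4% of all windows. The hypoxia core was found in 1 of the 10 windows, that of the second Vegfa start, and in 16.6% of all windows. That window lies inside the Vegfa gene, whose annotated span is 46016993 to 46032369. The window before the first Vegfa start held 0 hypoxia cores. A match is only a description of these letters, and the absence of one says nothing about a factor outside the window.

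By annotation of GRCm38, Kdr lies on chromosome 5 at 75932827 to 75978458 and Flt1 on the same chromosome at 147561604 to 147726011, both on the minus strand. Flt4 lies on chromosome 11 at 49609263 to 49652739 and Nrp1 on chromosome 8 at 128358604 to 128503363, both on the plus strand. Vegfa lies on chromosome 17 at 46016993 to 46032369 on the minus strand and Angpt1 on chromosome 15 at 42424723 to 42676977, also on the minus strand. All are protein-coding genes, and a UMI was assigned to the gene as a whole.

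Nrp1 also rose outside the endothelium. In fibroblast-like cells it was at 4.30 and 6.53 CPM in Prepuberty, 9.66 and 4.48 CPM in DCIS, and 39.2 and 131 CPM in Tumor. Both Tumor libraries were above all 4 gland libraries, and Tumor 2 was far above Tumor 1. Nrp1 rose by 3.44 ± 0.59 on the log2 scale against Prepuberty (edgeR adjusted p = 0.018) and by 2.85 ± 0.59 against DCIS (0.027). Without Tumor 2 the differences were 2.57 (0.059) and 1.96 (0.11). The first was also not called without Prepuberty 1 (3.16, 0.13) or Prepuberty 2 (3.67, 0.11), and the second not without Prepuberty 2 (2.76, 0.053), DCIS 1 (3.44, 0.11) or DCIS 2 (2.33, 0.19).

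Nrp1 was divided by T antigen as Angpt1 was. Cells without a T-antigen UMI had 48.6 and 117 CPM of Nrp1 in Tumor 1 and Tumor 2, and cells with one had 23.0 and 143 CPM. Among the cells without, the differences were 3.46 (edgeR adjusted p = 0.018) and 2.86 (0.028), as large as in the whole class. As for Angpt1, cells without such a UMI were shallower and are not shown to lack the transgene's RNA. Among the fibroblast-like clusters, that led by Crabp1, Col1a1 and Mfap4 had the highest Nrp1 and Angpt1 in both tumors, at 52.6 and 183 CPM and at 37.2 and 80.8 CPM. In macrophage-like cells Nrp1 was at 4.39 and 12.7 CPM, 10.99 and 15.8 CPM, and 35.6 and 51.2 CPM, highest in both Tumor libraries, but no comparison passed (Tumor against Prepuberty 1.88 ± 0.53, edgeR adjusted p = 0.061).

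Few fibroblast-like cells held a Kdr UMI. Kdr in fibroblast-like cells was at 0.94 and 0.68 CPM, 3.38 and 3.09 CPM, and 0.77 and 0.22 CPM, from 1 to 20 UMIs per library, in 0.386% to 2.15% of cells. It fell from DCIS to Tumor by 3.48 ± 0.90 on the log2 scale (edgeR adjusted p = 0.048), but this call held under only 7 of 17 alternatives. Endothelial markers summed to 20.1 to 69.5 CPM in this class, and without the cells carrying such a UMI the difference was -4.29 (edgeR adjusted p = 0.057). The endothelial and fibroblast changes of Kdr from DCIS to Tumor differed by 5.34 ± 0.62 (edgeR interaction, adjusted p = 0.0045) and those of Vegfc by 3.02 ± 0.60 (0.038).

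Flt1 was found in some epithelial and mural cells. Epithelial-like cells had 4.41 and 7.58 CPM in Prepuberty, 36.0 and 3.77 CPM in DCIS, and 21.7 and 63.9 CPM in Tumor. The libraries of a state disagreed, and no comparison passed. Pericyte- or smooth-muscle-like cells had 51.4 and 19.6 CPM in Prepuberty, 37.7 and 17.6 CPM in DCIS, and 141 CPM in Tumor 1. The 5 cells of Tumor 2 are not used. Endothelial markers in that class summed to 157 to 371 CPM, highest in Tumor 1 among the libraries used, and fibroblast markers to 9219 CPM in Tumor 1 against 437 to 1166 CPM in the glands. Their part in the level was not tested. In the same class of Tumor 1, Nrp1 was at 115 CPM, Angpt2 at 88.4 CPM and Pgf at 106 CPM, from 13, 10 and 12 UMIs, against at most 30.1, 23.9 and 6.55 CPM in the glands.

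The genes downstream of VEGF were described by a list of 15 endothelial genes. That list, like the others below, was chosen with earlier results of these data known, so the counts are descriptions only. In endothelial-like cells 9 of 15 were higher in Tumor than in Prepuberty and 0 were lower, against 11.5% of all genes called in either direction, with a median log2 difference of 1.42 against -0.02 over all genes. Kcne3, a potassium channel subunit of tip cells, was at 2.11 and 7.27 CPM in Prepuberty, 6.38 and 12.3 CPM in DCIS, and 749 and 493 CPM in Tumor, and rose by 7.02 ± 0.60 on the log2 scale (edgeR adjusted p = 0.0015). Apln, the ligand of the apelin receptor, was at 0.88 and 6.26 CPM, 0 and 0.72 CPM, and 406 and 577 CPM, and rose by 6.9995 ± 0.68 (0.0016). Both genes were low in every gland library and abundant in both tumors. Igfbp3, which binds insulin-like growth factors, rose by 6.71 ± 0.63 (edgeR adjusted p = 0.0016), and Esm1, a secreted tip-cell proteoglycan, by 4.86 ± 0.61 (0.0029).

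Against DCIS, 5 of the 15 downstream genes were higher and 2 lower, against 12.9% of all genes called. Sox17, an arterial transcription factor, fell by 1.59 ± 0.32 on the log2 scale (edgeR adjusted p = 0.017), from 139 and 112 CPM in DCIS to 54.9 and 52.4 CPM in Tumor. Rcan1, a calcineurin inhibitor induced by VEGF, fell by 2.39 ± 0.52 (0.023), from 360 and 152 CPM to 67.9 and 59.4 CPM. Genes of the list thus moved in both directions. Between DCIS and Prepuberty 0 of the 15 passed, as for all genes (0.0%).

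**Figure D5:**
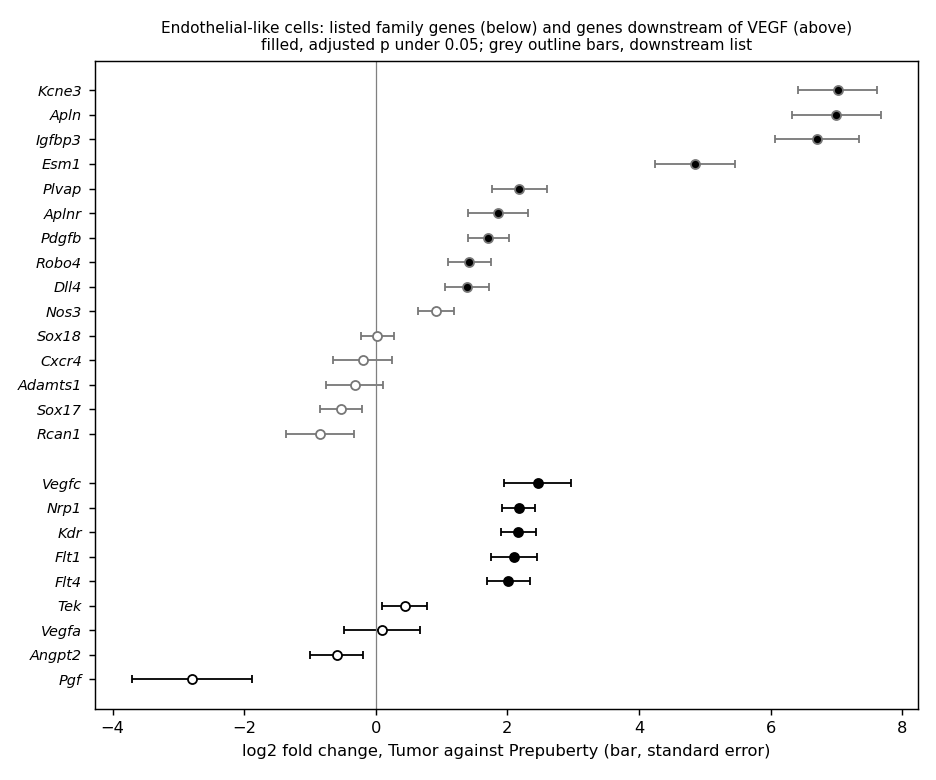
Log2 difference between Tumor and Prepuberty in endothelial-like cells, with standard errors, for the 9 genes of the family that were tested (below) and the 15 downstream genes (above). Filled points passed at an adjusted p under 0.05. Kdr, Flt1, Flt4, Nrp1 and Vegfc lie between 2.01 and 2.46, and Kcne3 and Apln at about 7.

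Relatives of the family moved in both directions. Of 7 relatives tested in endothelial-like cells, 2 were higher and 2 lower in Tumor than in Prepuberty, against 11.5% of all genes called. Ptprb, a phosphatase that restrains Tek, was at 89.1 and 48.9 CPM in Prepuberty, 61.4 and 53.8 CPM in DCIS, and 217 and 283 CPM in Tumor, and rose by 1.74 ± 0.37 on the log2 scale (edgeR adjusted p = 0.020). Tie1, the orphan partner of Tek, rose by 0.90 ± 0.24 (0.042). Angptl2, an angiopoietin-like secreted protein, fell by 3.11 ± 0.70 (0.024), and Vegfb, a ligand of Flt1, by 1.98 ± 0.52 (0.044). Angptl2 was already low in DCIS, at 1.42 and 5.78 CPM, against 26.2 and 41.0 CPM in Prepuberty.

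Inhibitors of vessel growth were split as well. Of 10 tested in endothelial-like cells, 2 were higher and 1 lower in Tumor than in Prepuberty, against the same 11.5%. Col18a1, whose product is cleaved to endostatin, was at 89.6 and 59.2 CPM in Prepuberty, 126 and 82.7 CPM in DCIS, and 521 and 692 CPM in Tumor, and rose by 2.91 ± 0.39 on the log2 scale (edgeR adjusted p = 0.0037). Vash1, an endothelial inhibitor induced by VEGF, rose by 3.26 ± 0.81 (0.036) from 2 and 12 UMIs to 7 and 4. Timp3, which blocks binding of Vegfa to Kdr, fell by 1.87 ± 0.51 (0.048), from 609 and 561 CPM to 235 and 76.9 CPM.

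In epithelial-like cells, where Vegfa was higher in Tumor, 2 of 14 hypoxia-inducible genes were higher in Tumor than in Prepuberty and 0 lower, against 6.75% of all genes called, with a median of 0.92 against 0.09 over all genes. P4ha1, a collagen prolyl hydroxylase, was at 4.94 and 10.3 CPM in Prepuberty, 9.69 and 10.7 CPM in DCIS, and 65.5 and 59.1 CPM in Tumor, and rose by 2.88 ± 0.40 on the log2 scale (edgeR adjusted p = 0.022). Ankrd37 rose by 3.40 ± 0.55 (0.026). Among the inhibitors in these cells 0 of 8 were higher and 2 lower, against the same 6.75%, the thrombospondin genes Thbs1 (-2.04 ± 0.34, 0.026) and Thbs2 (-4.19 ± 0.81, 0.033). Nrp2, a relative of Nrp1, rose by 3.35 ± 0.73 (0.040). The hypoxia factor Hif1a did not pass there.

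In macrophage-like cells, where Vegfa fell from DCIS to Tumor, 0 of 13 hypoxia-inducible genes were higher and 2 lower in that comparison, against 6.42% of all genes called, Ddit4 (-2.98 ± 0.74, edgeR adjusted p = 0.040) and Adm (-3.56 ± 0.92, 0.045). Hif1a had 419 and 368 CPM in the DCIS libraries against 105 and 183 CPM in Tumor, and fell by 2.09 ± 0.47 (0.030). Thbs1 fell by 2.76 ± 0.52 (0.014), from 187 and 184 CPM to 51.8 and 25.6 CPM. Between Prepuberty and DCIS 0 of the 13 hypoxia-inducible genes passed, where 0.128% of all genes were called, and Hif1a was at 375 and 184 CPM in Prepuberty.

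In fibroblast-like cells 1 of 14 hypoxia-inducible genes was higher and 1 lower in Tumor than in Prepuberty, against 7.53% of all genes called. Car9, a carbonic anhydrase, rose by 7.77 ± 1.32 on the log2 scale (edgeR adjusted p = 0.018), from 0 and 1 UMI to 10 and 133 UMIs. The size of this fold is uncertain, since it rests on 1 Prepuberty UMI and mostly on Tumor 2. In Tumor 2, 120 fibroblast-like cells carried a T-antigen UMI and 139 did not. Car9 was not tested without Tumor 2 or without such cells. Adm, which encodes the vasodilator adrenomedullin, fell by 2.40 ± 0.42 (edgeR adjusted p = 0.019). Adm was highest in DCIS, at 286 and 433 CPM, and lowest in Tumor, at 21.5 and 34.9 CPM. In endothelial-like cells 0 of 13 hypoxia-inducible genes were higher and 3 lower in Tumor than in DCIS, against 12.9% of all genes called, with Slc2a1, the glucose transporter, at -1.81 ± 0.36 (0.016) and Ndrg1 at -2.73 ± 0.61 (0.024). Against Prepuberty 0 of the 13 were higher and 0 lower in Tumor, where 11.5% of all genes were called. For Tumor against DCIS the median over the 13 was -0.38 in the class, and in capillary-like cells alone it was 0.14, with 1 gene higher and 2 lower against 17.0% of all genes called. Hif1a fell there by 1.86 ± 0.37 (0.016).

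The genes with the pattern most like each of the 10 were found by Pearson correlation of log2(CPM + 1) over 39 sums of a library and class with at least 50 cells, in 8 classes, among 5657 genes. The sums of 1 library share its depth and preparation, so these values are descriptions. Tek was most like Myct1 (r = 0.95), Tmem252 (0.93) and Emcn (0.93), and Kdr most like Emcn (0.89), Adgrl4 (0.88) and Myct1 (0.88). Angpt2 was nearest to Myct1 (0.90) and to the venous marker Selp (0.89), and Flt4 to Esm1 (0.92) and the capillary marker Gpihbp1 (0.92). Flt1 was nearest to Tspan9 (0.84) and Adgrf5 (0.83), Pgf to Plk2 (0.84) and Adgrg1 (0.78), Nrp1 to Svbp (0.79) and Angpt1 to Shox2 (0.79). Vegfa and Vegfc had no close neighbour, with Dok1 and Ext2 nearest at 0.66 each.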

How the data were processed

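Single-cell 3′ RNA libraries of 6 samples were analysed, 2 per disease state. The authors deposited raw UMI counts per gene and cell barcode for each library, made with Cell Ranger 3.0.2 per the file headers, on the build mm10 per the submitters' processing notes, without pooling. The UMI counts were used as deposited. Cells with at least 200 genes and at most 10% mitochondrial UMIs were kept, and doublets were scored with Scrublet in scanpy 1.11.5 and removed at 0.8% per 1000 cells of a library. Libraries were integrated in Seurat 5.3.0 (R 4.3.3) on 2000 variable genes, none of them among the 10 genes, with 20 components, and clustered at a resolution of 0.8. A cluster was named from at least 3 markers with UMIs in at least 25% of its cells and a level at least 2-fold above all other cells.

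UMIs were summed per library and class of at least 10 cells, and levels are given as CPM of that sum. Each class was fitted once over all its libraries with the quasi-likelihood test of edgeR 4.0.16 (TMM scaling, filterByExpr), adjusted by Benjamini-Hochberg over all genes tested at 0.05. States with fewer than 2 libraries were not tested. DESeq2 1.42.0 and the other alternatives in the closing section were computed by changing 1 choice at a time. The fits were tested on simulated data. Total kept UMIs were 28512209 to 57143434 per library, and Poisson intervals (95%, exact) and the floor of 3 UMIs cover counting error only.

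Named were all 10 genes, of each other list at most the 4 genes with the smallest p among those that passed in a class and comparison, and for each of the 10 the nearest genes by correlation. The genes, lists and markers were chosen with earlier results of these data known. The tests without cells carrying endothelial, neutrophil or T-antigen UMIs, the split of the endothelium and the interaction tests were chosen after seeing the data.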

Additional observations from a re-analysis of the deposited data

Results flagged for a closer look

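The change from DCIS to Tumor differed between cell classes for 5 pairs of a gene and 2 classes, by a test of the difference itself (edgeR interaction of state and class with the library as a block, adjusted over all genes). Of all genes 4.87% were called between epithelial-like and macrophage-like cells and 1.92% between endothelial-like and fibroblast-like cells. Kdr, Flt1, Angpt2 and Nrp1 were tested and not called between the former classes. Tek, Flt1, Angpt2, Nrp1, Flt4, Angpt1 and Vegfa were tested and not called between the latter. Vegfa was 4.55 higher on the log2 scale in epithelial-like than in macrophage-like cells (adjusted p = 3.3e-05), and Pgf 4.19 higher (adjusted p = 0.016). Kdr was 5.34 higher in endothelial-like than in fibroblast-like cells (edgeR adjusted p = 0.0045) and Vegfc 3.02 higher (0.038), while Pgf was -5.17, with the endothelial change the lower (0.012). The fibroblast-like side of the Kdr difference rests on 1 to 20 UMIs per library.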

How the results depend on the processing

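No called difference reversed under the alternatives run. Of the tests of called results under alternatives that keep every library, 278 stayed called and 25 did not, and with 1 library left out 109 stayed and 65 did not. In epithelial-like cells the calls over the 3 comparisons numbered 1, and 5 with DESeq2, 10 with no filter on low counts, and 0 with only the libraries compared, without cells carrying an endothelial-marker UMI, with a mitochondrial limit of 5% or without integration. Calls over all genes moved too, from 0, 250 and 899 in the 3 comparisons to 339, 1640 and 2345 with DESeq2, 703, 2048 and 2823 with no filter and 0, 0 and 0 without integration. The cause was not tested. With no filter on low counts there were 8 calls in fibroblast-like cells, against 5, and 8 in macrophage-like cells, against 3, and calls over all genes rose there from 0, 1326 and 886 to 404, 2845 and 2369 and from 10, 502 and 470 to 230, 1172 and 1015. Leaving out 1 library gave 0 to 4 calls in epithelial-like, 1 to 5 in fibroblast-like, 6 to 11 in endothelial-like (9 with all libraries), 0 to 6 in macrophage-like, 6 to 10 in capillary-like and venous-like cells (11) and 0 to 0 in pericyte- or smooth-muscle-like cells. The labels do not say that a replicate number marks a shared animal, batch or day, each state has only 2 numbers, and same-numbered libraries correlated at -0.08 to 0.47, and in fibroblast-like cells at 0.43, 0.13 and 0.25. With the replicate number as a block the calls were 0 in epithelial-like, 6 in fibroblast-like, 11 in endothelial-like, 4 in macrophage-like, 12 in capillary-like and venous-like and 0 in pericyte- or smooth-muscle-like cells. The block lost the Tumor against Prepuberty calls of Vegfa in epithelial-like (2.70, edgeR adjusted p = 0.058) and macrophage-like cells (2.01, 0.051). It added Tumor against Prepuberty calls of Vegfa in fibroblast-like (1.56, 0.041) and Kdr in macrophage-like cells (-3.43, 0.049), and Tumor against DCIS calls of Flt1 (1.04, 0.019) and Angpt2 (-1.19, 0.015) in endothelial-like, Kdr in macrophage-like (-3.34, 0.033) and Flt1 in capillary-like cells (0.91, 0.039). The Tumor libraries held only 77 and 33 endothelial-like cells.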
